A study of Mus musculus with 18 samples.

Results

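The genes described here encode 10 proteins with a CXXC zinc finger, a fold by which many proteins recognise CpG dinucleotides that carry no methyl group. They were Cxxc1, Cxxc4, Cxxc5, Kmt2a, Kmt2b, Tet1, Tet3, Dnmt1, Mbd1 and Fbxl19, taken by symbol from GENCODE release M21, and they stood among 21938 protein-coding genes and 55413 genes in all. For each gene the ChIP-seq peaks of 12 lists were scored in the promoter window, which was the union of 2 kb on either side of every transcription start site (TSS), and over the gene body from its first to its last annotated base. Coverage is the percent of that window or gene body lying under peaks, and the fold of a peak is its enrichment over the input background as deposited.

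The B cells came from the spleens of mice that were wildtype (WT) or Mir155-deficient (KO) on a C57BL/6 J background, and they had been cultured for 2 days at 1% O2 and 5% CO2. All groups received IL-4 at 4 ng/ml together with antibodies to CD40 at 1 µg/ml and to IgM (an F(ab')2 fragment) at 5 µg/ml, a model of positive selection in the germinal center. All were fixed with EGS and formaldehyde. Each genotype had 3 libraries for KDM2A, made from 13.5 µg of chromatin, and 3 for H3K36me2, made from 1 µg, with replicate 1 from a male and replicates 2 and 3 from females. The labels name no Cre, transgene or further allele for these cells, and they give no age for the mice. Kdm2a is a target of miR-155, and the libraries compare where the demethylase and its substrate are found with and without that microRNA. Peak lists hold no reads over the deleted gene, so the genotype labels could not be checked against it.

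KDM2A removes the dimethyl mark from lysine 36 of histone H3, and it reaches CpG islands through a CXXC zinc finger of its own. The genes examined here encode proteins with a finger of the same family, and which CpG each of them reads was not examined. CXXC1 (also CFP1) brings the SET1 complexes and KMT2A and KMT2B (MLL1 and MLL2) are themselves enzymes that methylate lysine 4 of histone H3 at CpG-rich promoters. TET1 and TET3 oxidise 5-methylcytosine, CXXC4 and CXXC5 are small proteins linked to TET2 and to Wnt signalling, DNMT1 copies DNA methylation onto the new strand after replication, MBD1 is a methyl-CpG binding repressor, and FBXL19 is an F-box protein that recruits the CDK8 Mediator module to CpG islands.

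The WT lists of KDM2A held 23372 to 29105 peaks over 0.770% to 1.11% of the genome, and its KO lists 15387 to 21705 peaks over 0.433% to 0.715%. For H3K36me2 the WT lists held 85387 to 94136 peaks over 4.17% to 5.32%, and the KO lists 37447 to 106720 peaks over 1.44% to 3.63%. Every KO list of either antibody thus covered less of the genome than every WT list, and read depth is unknown. Coverage of a single gene may depend on the extent of its list, and how far it does was not tested. The KO replicate 1 list of H3K36me2, from a male, stood apart from the other KO lists with the most peaks of any list. Of the B cell markers reported, Cd79a, Cd79b and Pax5 held a KDM2A promoter peak in all 6 lists, Ebf1 in 5 and Ms4a1 in 4, whereas the T cell genes Cd3e, Cd4 and Cd8a and the myeloid genes Lyz2, Itgam and Csf1r held one in at most 1 list. The erythroid gene Klf1 held such a peak in 6 lists, and Hbb-bs in 0. H3K36me2 gene-body coverage had a lower mean in KO at 13 of the 13 markers that were covered at all, beside 85.6% of all genes tested. The myeloid gene Itgam was among them, with 52.0% in WT and 27.4% in KO. Cd79b, Ms4a1, Cd3e and Cd4 were covered in WT lists only, so that their direction was fixed, and 20.8% of all genes were likewise covered in WT lists only. The part of other cell types in the values below was not tested.

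Promoter sequence is shown first because KDM2A reaches CpG islands through its CXXC finger. RefSeq promoters of build GRCm38.p6, running from 250 bases before to 50 bases after a start, were matched by symbol for 6 of the 10 genes in 9 entries, namely Cxxc4, Tet1, Tet3, Kmt2a, 2 for Fbxl19 and 3 for Dnmt1. Kmt2b, Cxxc1, Cxxc5 and Mbd1 are named without sequence. The 5 entries below are the pair of Dnmt1 starts with the most and the fewest CG dinucleotides, the Kmt2a promoter, and the promoters of Cxxc4 and Tet1, which lay under no KDM2A peak. They are written 5′ to 3′ on the gene's own strand, with each CG in capitals. The Kmt2a promoter was chr9:44881240-44881539 (minus strand), that of Dnmt1 chr9:20952574-20952873 (minus strand) at its inner start and chr9:20959839-20960138 (minus strand) at its outermost start, that of Cxxc4 chr3:134236245-134236544 (plus strand) and that of Tet1 chr10:62887275-62887574 (minus strand).
Kmt2a: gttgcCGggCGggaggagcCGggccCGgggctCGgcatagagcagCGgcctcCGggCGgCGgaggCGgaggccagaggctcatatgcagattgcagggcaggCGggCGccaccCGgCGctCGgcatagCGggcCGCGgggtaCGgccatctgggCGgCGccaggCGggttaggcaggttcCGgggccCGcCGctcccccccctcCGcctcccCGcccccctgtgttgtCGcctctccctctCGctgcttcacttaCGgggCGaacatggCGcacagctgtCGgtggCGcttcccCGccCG
Dnmt1 inner start: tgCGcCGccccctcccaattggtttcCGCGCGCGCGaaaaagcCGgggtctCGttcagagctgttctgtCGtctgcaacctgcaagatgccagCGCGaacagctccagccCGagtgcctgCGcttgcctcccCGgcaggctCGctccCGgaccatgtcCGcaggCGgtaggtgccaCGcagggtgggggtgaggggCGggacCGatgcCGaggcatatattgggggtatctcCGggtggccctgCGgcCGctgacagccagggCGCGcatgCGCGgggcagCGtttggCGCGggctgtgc
Dnmt1 outermost start: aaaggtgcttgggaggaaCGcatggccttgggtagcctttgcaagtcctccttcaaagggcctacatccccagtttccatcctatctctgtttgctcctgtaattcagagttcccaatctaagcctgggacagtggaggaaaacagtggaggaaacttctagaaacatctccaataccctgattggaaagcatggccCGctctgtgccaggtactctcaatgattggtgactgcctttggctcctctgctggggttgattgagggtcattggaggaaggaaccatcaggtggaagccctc
Cxxc4: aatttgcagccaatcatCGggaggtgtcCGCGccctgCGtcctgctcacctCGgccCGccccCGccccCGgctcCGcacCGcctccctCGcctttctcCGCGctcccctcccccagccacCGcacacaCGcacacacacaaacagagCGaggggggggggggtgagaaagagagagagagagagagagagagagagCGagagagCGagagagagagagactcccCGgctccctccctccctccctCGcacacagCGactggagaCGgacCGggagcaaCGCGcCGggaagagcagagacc
Tet1: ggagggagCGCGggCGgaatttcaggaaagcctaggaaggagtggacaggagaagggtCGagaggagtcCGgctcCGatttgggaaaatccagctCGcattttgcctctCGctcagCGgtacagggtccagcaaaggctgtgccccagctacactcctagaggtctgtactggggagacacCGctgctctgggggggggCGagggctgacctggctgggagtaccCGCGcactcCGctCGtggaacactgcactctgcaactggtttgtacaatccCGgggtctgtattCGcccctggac

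The Kmt2a promoter held 36 CG in its 300 bases and lay under a KDM2A peak in all 6 lists. The inner Dnmt1 promoter held 33 and was also under a peak in 6 lists, while the outermost Dnmt1 promoter held 2 and was under a peak in 1 list, WT replicate 1. The remaining Dnmt1 promoter held 12 CG and was under a peak in 5 lists. The Tet3 promoter, with 22 CG, was under a peak in 6 lists, and the Fbxl19 promoters, with 14 and 16, in 5 and 4 lists. Cxxc4 held 26 CG, more than 83.1% of all promoters in the table, and Tet1 17, more than 68.6%, and both promoters were under a peak in 0 of 6 lists. The motif searched was CG, which reads the same on both strands, with no overlap between matches possible.

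Across all 32851 promoters of the table, the share under a KDM2A peak in all 6 lists was 0.224% with 0 to 4 CG, 1.71% with 5 to 9, 14.7% with 10 to 19, 35.5% with 20 to 29 and 44.1% with 30 or more, against 13.3% of all of them. The share under a peak in no list fell from 93.0% in the first class to 16.1% in the last. With its 26 CG, Cxxc4 belonged to a class in which 803 of 4864 promoters, 16.5%, were under a peak in no list, and Tet1 to a class in which 39.6% were. Promoters share lists and base composition, so these shares are a description without a test.

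**Figure D1:**
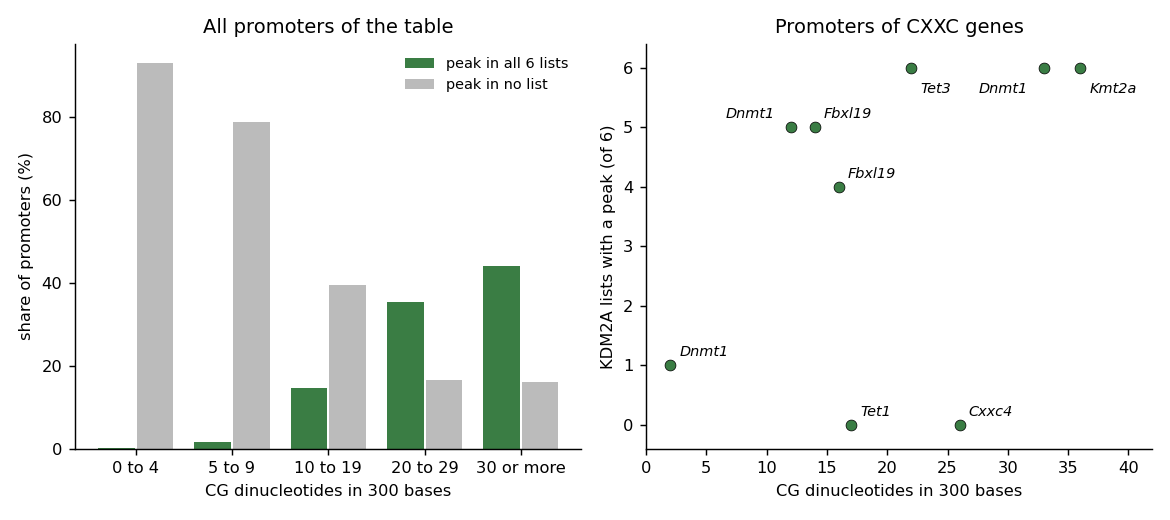
Left, share of RefSeq promoters (percent, y axis) under a KDM2A peak in all 6 lists (green) or in no list (grey), by the number of CG dinucleotides in 300 bases (x axis). Right, the 9 promoter entries used for the CXXC genes (none on chromosome 18) as points, by their number of CG (x axis) and the number of KDM2A lists with a peak over them (y axis), where Kmt2a with 36 CG stands at 6 lists and Cxxc4 with 26 CG at 0.

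KDM2A promoter peaks were called in all 6 lists at 8 of the 10 genes, where 26.4% of protein-coding genes had such peaks. The exceptions were Tet1, with peaks in 5 lists, and Cxxc4, with none in any list. Each of the 10 genes has several TSS, and their windows ran from 7.73 kb at Fbxl19 to 28.2 kb at Tet1. A wider window can meet a peak more easily, and the part of window width in this count was not tested. At Fbxl19 the peaks of the 6 lists shared 0 bp. Over gene bodies the same 8 genes had a KDM2A peak in all 6 lists, against 27.2% of protein-coding genes. The windows of these genes hold 63 distinct TSS, of which 10 lay under a KDM2A peak in all 6 lists and 27 in none, where 12.4% and 54.5% of the TSS of protein-coding genes did so. H3K36me2 peaks seldom lay over the starts themselves. No list had one at 59 of the 63 TSS, and 84% of the TSS of protein-coding genes were likewise free of it.

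Of Cxxc1, Kmt2a and Kmt2b, the genes of histone H3 lysine 4 methylation among the 10, Kmt2b had the highest mean KDM2A promoter coverage in WT. Kmt2b (chr7:30568858-30588726, minus strand) has 8 annotated TSS. Their promoter windows, which leave a gap inside the gene, add up to 19.98 kb, about the length of the gene itself. KDM2A peaks covered 51.1%, 30.2% and 47.8% of that window in WT replicates 1, 2 and 3 and 11.3%, 8.90% and 29.99% in KO. Every KO list lay below every WT list, though KO replicate 3 came close to WT replicate 2. Over the gene body the groups overlapped, with 48.01%, 24.04% and 42.1% in WT and 14.6%, 1.95% and 24.7% in KO. They overlapped as well with the TSS of protein-coding transcripts alone (difference -18.74, adjusted p = 0.741 by limma). The mean difference was -26.31 percentage points (SE 9.39), with an adjusted p = 0.653 by limma, so the gene did not pass the test. The window held 6, 3 and 7 KDM2A peaks in WT, while KO had 2, 1 and 5. The 924 bp shared by all 6 lists, chr7:30588339-30589262, spanned the first TSS of the gene, and both TSS nearest to it were under a peak in 6 lists. The TSS further inside the gene were under a KDM2A peak in at most 2 of 3 WT lists and at most 1 of 3 KO lists. Divided by the extent of each list, the difference at Kmt2b was -13.29 percentage points (adjusted p = 0.736, limma), and the groups overlapped. H3K36me2 was sparse in the same window, with 3.34%, 0% and 2.46% in WT and 6.22%, 0% and 0% in KO.

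Kmt2a held the strongest KDM2A peak of these genes. Its highest promoter fold was 3.67, 4.22 and 4.12 in WT compared with 3.75, 3.95 and 3.26 in KO, and the groups overlapped. On the log2 scale, with each list centred on its median, this level was above that of 98.3% of the 5786 genes with a promoter peak in all 6 lists. The bases shared by all 6 lists, chr9:44881322-44881700, are 379 bp centred 215 bp upstream of the first TSS, outside the gene (chr9:44803355-44881296, minus strand). The start of an antisense gene, AC061963.1, lies 217 bp from that centre, so the peak cannot be given to either gene alone. Promoter coverage was 12.7%, 23.1% and 27.8% in WT against 15.1%, 6.67% and 17.8% in KO, and these overlapped. The protein-coding TSS at position 44880866, inside the gene, was under a KDM2A peak in 3 of 3 WT lists and 0 of 3 KO lists. It was 1 of 2 such TSS among the 63 of these genes, none of which showed the reverse, where 0.734% of the TSS of protein-coding genes had this pattern and 0.0781% the reverse. The KO lists of KDM2A were also the shorter ones, and the part of that was not tested. Over the gene body KDM2A covered 6.39%, 3.45% and 3.67% in WT and 0.819%, 0.577% and 2.76% in KO. No KO list reached a WT list (difference -3.12, SE 1.40, adjusted p = 0.634 by limma). The difference was -1.85 when coverage was scaled to the extent of each list, -1.80 with stricter peaks (a −log10 q of at least 2) and -1.23 with equal numbers of the strongest peaks per list, where the lists overlapped. H3K36me2 was thin over the gene, at 2.04%, 7.08% and 2.197% of the body in WT and 1.97%, 0.852% and 0% in KO, where the groups were parted by less than the spread within WT.

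Cxxc1 (chr18:74216124-74221496, plus strand) had a single KDM2A promoter peak in every list. Coverage of its window was 27.9%, 4.29% and 11.3% in WT compared with 5.71%, 7.61% and 4.86% in KO, and the spread within WT exceeded the difference between genotypes. All 6 lists shared 138 bp in the 5′ UTR, centred 122 bp downstream of the protein-coding TSS. H3K36me2 was not called within the gene body of Cxxc1 in any list. It was called upstream, where the promoter window was covered to 15.8%, 7.80% and 12.8% in WT and to 2.203% in KO replicate 1, with no peak in the other KO lists. The WT lists shared 628 bp there, centred 1290 bp upstream of the first TSS. The KO libraries all lay below the WT libraries (difference -11.40 percentage points, SE 5.38, adjusted p = 0.419 by limma), and without KO replicate 1 the difference was -12.1. It was -4.43 in a window of 1 kb, -6.87 with equal numbers of peaks, -2.60 with the stricter peaks and -24.4 with coding TSS, and the lists overlapped with the stricter peaks and with equal numbers.

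**Figure D2:**
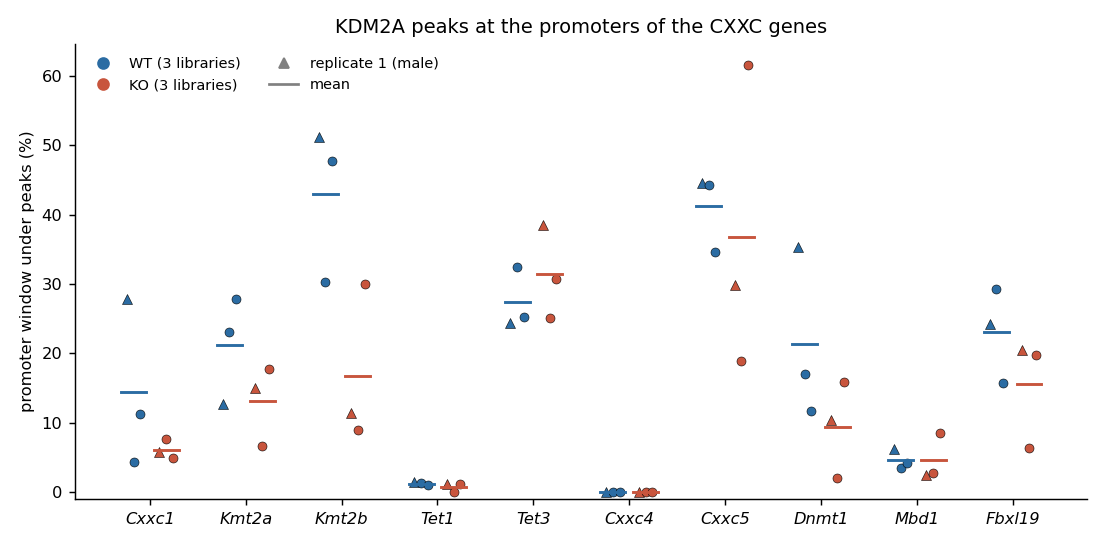
Percent of each promoter window under KDM2A peaks (y axis) for the 10 CXXC genes (x axis), with WT in blue, KO in red, 1 point per library, triangles for the male replicate 1 and lines for the mean of 3 libraries. Kmt2b has WT points at 30.2% to 51.1% and KO points at 8.90% to 29.99%, while Cxxc4 stays at 0 in all 6 lists.

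The TET genes differed in their marks. Tet3 had KDM2A peaks at its inner starts in all 6 lists, and Tet1 had none at any start but carried H3K36me2 over its body in all 6 lists. At Tet3 (chr6:83362373-83459084, minus strand) KDM2A covered 24.4%, 32.5% and 25.3% of the promoter window in WT and 38.4%, 25.2% and 30.7% in KO. The groups overlapped, and Tet3 was the one gene of the 10 with a higher mean in KO in the lists as deposited (difference 4.04 percentage points, SE 7.20, adjusted p = 0.835 by limma). This value was 0.531 without KO replicate 1 and -0.959 in females alone, and 21.01 when scaled and 16.9 with the stricter peaks, so that its size and sign changed with the setting. Peaks were shared by all 6 lists at 2 places, 179 bp at chr6:83441615-83441793 and 815 bp at chr6:83456317-83457131. Both lie over inner TSS, 4 of which were under a KDM2A peak in all 6 lists, and the outermost TSS at position 83459084 was under a peak in no list. A non-coding transcript, B230319C09Rik, starts 51 bp from the centre of the shorter stretch. H3K36me2 covered 12.998%, 14.99% and 21.7% of the Tet3 promoter window in WT and 23.5%, 0% and 8.07% in KO, so that the male KO library had the highest value and a female KO library none. Tet3 gene-body coverage by H3K36me2 was 2.08%, 6.34% and 4.68% in WT against 2.91%, 0.834% and 0% in KO, and the groups overlapped.

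At Tet1 (chr10:62804570-62908996, minus strand) KDM2A was at the margin of detection. Its promoter window was covered to 1.38%, 1.25% and 0.979% in WT and to 1.11%, 0% and 1.22% in KO, by at most 1 peak per list. The 8 KDM2A peaks over the gene were 237 to 713 bp long with folds of 2.40 to 3.08. Of these, 6 overlapped no peak of another list, the exceptions being a pair from KO replicates 1 and 3, and none of its 10 TSS was under a peak. H3K36me2 behaved otherwise, with 16, 17 and 18 peaks over the Tet1 body in WT and 19, 2 and 8 in KO. These covered 10.8%, 16.6% and 15.7% of the gene in WT and 14.02%, 2.09% and 3.55% in KO, so that the male KO library lay among the WT libraries and the groups overlapped. The mean difference was -7.81 percentage points (SE 4.58, adjusted p = 0.379 by limma). The peaks seldom fell in the same places, since the WT lists shared only 471 bp, chr10:62882784-62883254, in an intron. In its promoter window, H3K36me2 coverage was 16.5%, 9.15% and 11.8% in WT compared with 7.97%, 0% and 0.890% in KO, and no KO value reached the lowest WT value (difference -9.53, SE 6.10, adjusted p = 0.456 by limma). Without KO replicate 1, the differences at Tet1 were -11.5 over the body and -12.03 in the promoter window. When scaled they were -1.25 and -6.07, with the stricter peaks -1.99 and -2.39, and with equal numbers of peaks -4.41 and -5.30. With coding TSS alone the promoter difference was -6.03. Under each of these 4 settings the promoter values of the genotypes overlapped.

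Of the pair of small CXXC proteins, Cxxc5 had the widest H3K36me2 of the 10 genes and Cxxc4 had no peak of either antibody in any of the 12 lists. Cxxc4 (chr3:134236484-134262161, plus strand) is the gene whose CpG-rich promoter is printed above, and none of its 5 TSS was marked. A list names only peaks past its threshold, so these values show no called peak rather than no binding.

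At Cxxc5 (chr18:35829397-35861688, plus strand) H3K36me2 peaks covered 62.7%, 76.3% and 50.4% of the gene body in WT and 40.9%, 15.1% and 18.2% in KO. The mean over the 6 lists exceeded that of 99.2% of protein-coding genes. All KO lists were below all WT lists, with a mean difference of -38.37 percentage points (SE 11.79). The adjusted p was 0.304 by limma, and the unadjusted p was 0.0145, so the gene did not pass the test. Without KO replicate 1, the list with the most peaks, the difference was -46.5 (SE 9.54, adjusted p = 0.0817 by limma). Divided by the extent of each list, it was -6.61 (adjusted p = 0.794, limma), and with peaks of a −log10 q of at least 2 alone it was -24.67 (adjusted p = 0.624, limma).

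The H3K36me2 peaks of Cxxc5 were then compared by length and by height. The longest peak over the gene and its flanks measured 8.85, 24.5 and 6.52 kb in WT and 4.54, 1.89 and 1.67 kb in KO, without overlap between groups. Of the 4077 protein-coding genes with a peak in all 6 lists, 42.7% had every KO list below every WT list in this length and 0.123% above, so such separation was common. Its mean difference was -10.6 kb, where the median of those genes was -1.60 kb. The highest fold of a gene-body peak was 2.88, 2.72 and 3.17 in WT compared with 3.20, 3.17 and 3.10 in KO, and here the groups overlapped. The gene body held 3, 2 and 5 peaks in WT and 9, 3 and 8 in KO, so that KO replicates 1 and 3 had more peaks than any WT library. In the promoter window H3K36me2 coverage was 42.7%, 49.1% and 23.1% in WT against 28.5%, 16.9% and 20.03% in KO, and the groups overlapped. All 6 lists shared H3K36me2 at 2 intronic stretches, of 1670 bp centred 3189 bp downstream of a TSS and of 504 bp. These were the only stretches under H3K36me2 in all 6 lists at any of the 10 genes.

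KDM2A also lay along the Cxxc5 body, at 39.6%, 39.1% and 31.4% in WT and 17.1%, 21.5% and 36.5% in KO, and KO replicate 3 lay among the WT libraries. In number, KDM2A peaks over the body came to 8, 9 and 7 in WT and to 2, 6 and 6 in KO, without overlap. Cxxc5 and Dnmt1 were the 2 of 9 CXXC genes with fewer peaks in every KO list, where 4.91% of all genes tested were so and 0.287% had more. In the promoter window KO replicate 3 had the highest coverage of all, 61.5%, while WT had 44.6%, 44.3% and 34.7% and the other KO lists 29.9% and 18.9%. All 6 lists shared 639 bp over the TSS at position 35830314 and 634 and 217 bp within introns. The overlap of demethylase and substrate was read from libraries of the same genotype and replicate number, which the labels do not say came from the same cells. Of the KDM2A bases over Cxxc5, 62.8%, 80.4% and 70.7% were also under H3K36me2 in the WT pairs, while the KO pairs had 21.5%, 5.09% and 22.8%. The whole genome gave lower shares, which were 21.7%, 19.6% and 20.8% in the WT pairs and 12.8%, 3.54% and 4.32% in the KO pairs. H3K36me2 by itself covered 62.7%, 76.3% and 50.4% of the Cxxc5 body in WT and 40.9%, 15.1% and 18.2% in KO. The overlap was near that coverage in WT replicate 1 and above it in WT replicates 2 and 3 and KO replicate 3. It was below that coverage in KO replicates 1 and 2, and the part of coverage in the overlap was not tested. Among the 10 genes Cxxc5 alone had such overlap in a KO pair. Tet3 had 11.1%, 6.37% and 23.1% in the WT pairs, and Tet1, with few KDM2A bases, had 66.9%, 0% and 38.8%. Over Cxxc1 no list held H3K36me2, and over Kmt2b only that of KO replicate 1 did, so overlap there was not possible in the other pairs.

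**Figure D3:**
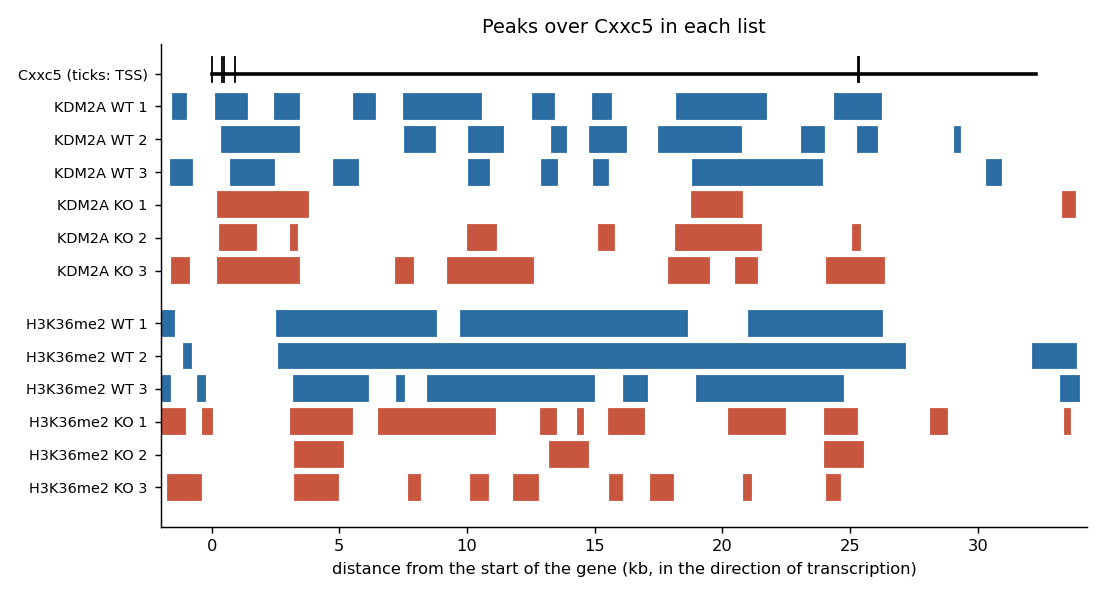
Peaks over Cxxc5 and 2 kb on either side in each of the 12 lists (rows, WT in blue, KO in red), drawn as bars by distance from the start of the gene (x axis, kb), with the TSS as ticks on the black line; bars that run past the 2 kb flanks are clipped. The H3K36me2 bars reach 24.5 kb in WT and at most 4.54 kb in KO.

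Dnmt1 was marked by KDM2A at its inner starts. At Dnmt1 (chr9:20907209-20959888, minus strand) the 322 bp shared by all 6 lists, chr9:20952518-20952839, held the TSS at positions 20952605 and 20952623, whose CpG-rich sequence is printed above. The outermost TSS, with its 2 CG, was under a KDM2A peak in WT replicate 1 alone. Promoter coverage was 35.3%, 16.99% and 11.7% in WT compared with 10.4%, 1.97% and 15.8% in KO, and the groups overlapped. Over the gene body KDM2A covered 21.1%, 11.9% and 6.52% in WT and 3.24%, 2.93% and 5.20% in KO, without overlap. The mean difference was -9.41 percentage points (SE 4.06, adjusted p = 0.634 by limma). It was -5.44 without WT replicate 1, -5.17 in females alone, -5.23 when scaled, -3.49 with the stricter peaks and -6.19 with equal numbers of peaks, and under the last 2 settings the lists overlapped. The number of KDM2A peaks over the gene went the same way, with 8, 6 and 4 in WT and 1, 3 and 3 in KO. A retained-intron TSS at position 20908979, near the 3′ end of the gene, was under a KDM2A peak in 3 of 3 WT lists and 0 of 3 KO lists, the other of the 2 TSS with this pattern. H3K36me2 covered 5.62%, 1.12% and 1.16% of the Dnmt1 body in WT and 2.00%, 0% and 0% in KO.

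Mbd1 (chr18:74267605-74282732, plus strand) had the narrowest KDM2A promoter coverage of the 8 genes with KDM2A in every list. Its promoter coverage was 6.17%, 3.52% and 4.15% in WT against 2.38%, 2.79% and 8.497% in KO, with a difference of -0.06 percentage points (SE 2.44, adjusted p = 0.993 by limma). This difference was 1.03 without KO replicate 1, and its sign changed in 5 of 15 alternatives. It was -2.03 without KO replicate 3 and -2.89 with the stricter peaks. Under these settings all KO lists lay below all WT lists, as at 22.3% and 11.5% of all genes. The bases shared by all 6 lists came to 35 bp, at a TSS. H3K36me2 was called at Mbd1 in WT replicate 1 alone, over 1.67% of the gene.

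Fbxl19 (chr7:127744543-127769483, plus strand) has 7 TSS in its first kilobases, none of which was under a KDM2A peak in all 6 lists. The TSS at position 127745786 came nearest, under a peak in 3 WT lists and 1 KO list. Promoter coverage was 24.3%, 29.3% and 15.7% in WT compared with 20.6%, 6.29% and 19.7% in KO, and the groups overlapped. The difference was -7.58 percentage points, and it was 1.45 when scaled and -19.6 with the stricter peaks (adjusted p = 0.595 by limma). With the stricter peaks every KO list was below every WT list, as at 11.5% of all genes. The peaks of Fbxl19 were weaker than those of most genes, since its centred log2 fold exceeded that of 5.10% of the genes with a peak in all 6 lists. Its highest promoter fold was 3.17, 2.91 and 2.89 in WT compared with 2.76, 2.64 and 2.43 in KO, so that every KO list was below every WT list. After centring on the median of each list the groups overlapped, with a difference of -0.14 on the log2 scale (SE 0.10, adjusted p = 0.914 by limma), which was -0.07 without WT replicate 1 and -0.08 without KO replicate 3. H3K36me2 covered 18.2%, 11.6% and 9.49% of its promoter window in WT and 2.97%, 1.54% and 6.45% in KO, where all KO lists lay below all WT lists (difference -9.45, SE 6.26, adjusted p = 0.464 by limma). In a window of 1 kb the lists overlapped and the difference was -4.2, and it was -4.32 with equal numbers of peaks, -3.88 with the stricter peaks and -2.49 when scaled, where the lists overlapped as well. Over its body, coverage was 7.35%, 7.73% and 6.33% in WT against 7.73%, 3.27% and 2.03% in KO, and the groups overlapped.

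**Figure D4:**
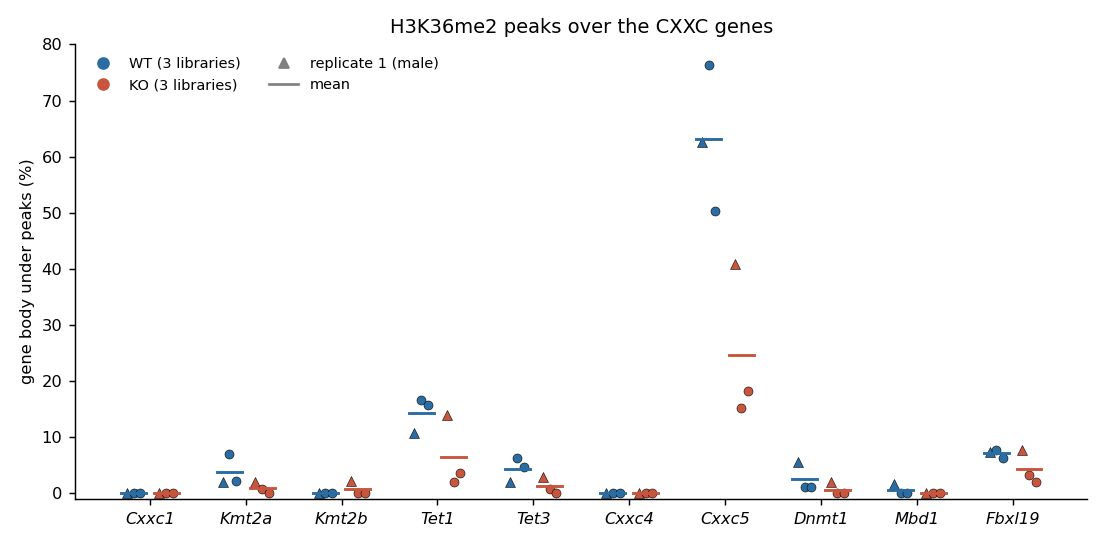
Percent of each gene body under H3K36me2 peaks (y axis) for the 10 CXXC genes (x axis), with WT in blue, KO in red, 1 point per library, triangles for the male replicate 1 and lines for the mean of 3 libraries. Cxxc5 spans 50.4% to 76.3% in WT and 15.1% to 40.9% in KO, and no other gene exceeds 16.6%.

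Ordered by the mean of their highest KDM2A promoter fold over 6 lists, the genes with a peak in every list ran from Kmt2a (3.83) through Kmt2b (3.32), Dnmt1 (3.18), Cxxc1 (3.10), Tet3 (3.05), Cxxc5 (3.05) and Mbd1 (2.98) to Fbxl19 (2.80). Neighbours in this order had overlapping ranges over the lists. The ends of the order did not overlap, with 3.26 to 4.22 at Kmt2a and 2.43 to 3.17 at Fbxl19.

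The genotypes were then compared over the genes together, with limma fitted across every protein-coding gene that had a peak of the antibody in at least 1 list. Of the 10 genes, 9 passed that filter for KDM2A promoter coverage, 9 for KDM2A gene-body coverage, 9 for H3K36me2 promoter coverage and 8 for H3K36me2 gene-body coverage. None of them passed an adjusted p of 0.05 in any of these fits, and neither did any of the 13330, 14654, 12533 and 12761 genes tested, which is 0% of each. At an unadjusted p under 0.05 there were 945, 1001, 1493 and 1965 genes, and the CXXC genes among them were Kmt2b for KDM2A promoter coverage and Cxxc5 for H3K36me2 gene-body coverage. No other tool was run on coverage. For a single gene the smallest p that an exact permutation test of 3 against 3 libraries can give is 0.1.

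KDM2A promoter coverage was lower in KO on average at 8 of 9 genes, beside 73.9% of all genes tested, with a median difference of -7.58 percentage points, where the median of all genes tested was -2.39. Every KO list was below every WT list at 1 gene, Kmt2b, and above at none, where the shares of all genes tested were 11.6% and 1.1%. The lower count was 4 without KO replicate 3 (22.3% of all genes) and without WT replicate 3 (20.5%), 3 with a window of 1 kb (10.4%) and with the stricter peaks (11.5%), and 0 with coding TSS (10.8%). KDM2A gene-body coverage was lower on average at 9 of 9 genes, beside 75.003% of all, with a median of -6.16 beside -0.65 for all genes. The lists did not overlap, with KO below, at 2 genes, Kmt2a and Dnmt1, against 12.9% of all genes below and 1.02% above. That count was 6 without KO replicate 3 (23.4% of all genes), 4 without WT replicate 2 or WT replicate 3 (23.8% and 22.2%), and 4 with the stricter peaks (11.8%).

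H3K36me2 promoter coverage was lower in KO on average at 8 of 9 genes, beside 85.2% of all, with a median of -6.04 beside -5.55 for all genes. Kmt2a and Mbd1 passed the filter through 1 WT list each, so that their lower mean was fixed by the filter, and 23.2% of all genes likewise had peaks in WT lists only and 5.82% in KO lists only. Every KO list was below every WT list at Cxxc1, Tet1 and Fbxl19, and 19.5% of all genes were below and 0.239% above. The count was 6 without KO replicate 1 (37.5% of all genes), 5 without WT replicate 3 (28.5%) and 0 with the stricter peaks (2.99%). H3K36me2 gene-body coverage was lower on average at 7 of 8 genes, beside 85.6% of all, with a median of -2.81 beside -3.25 for all genes. The exception was Kmt2b, with 0% in 5 lists and 2.17% in KO replicate 1. The direction of Kmt2b, and that of Mbd1 with its peak in WT replicate 1 alone, was fixed by the filter, and 20.8% of all genes had peaks in WT lists only and 6.93% in KO lists only. The lists did not overlap at Cxxc5 and Kmt2a, and 22.8% of all genes were below and 0.0862% above. The count was 6 without KO replicate 1 (47.2% of all genes), 4 without WT replicate 1 (37.9%) and 0 with the stricter peaks (5.63%).

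**Figure D5:**
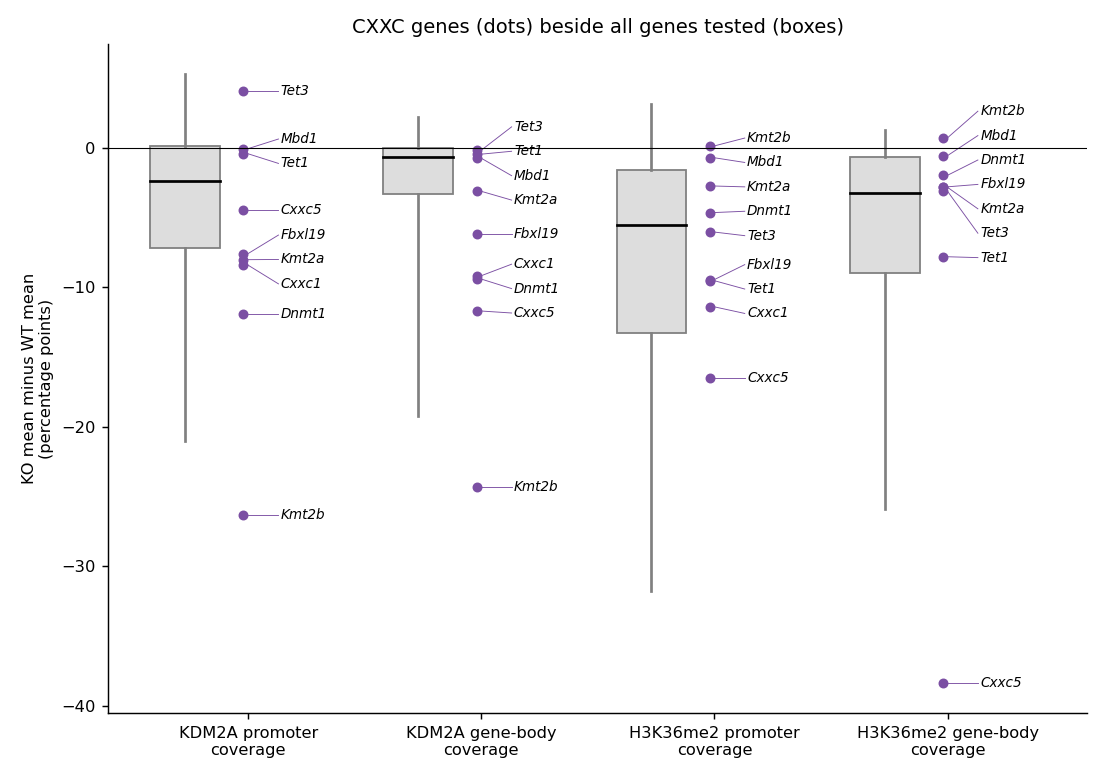
KO mean minus WT mean of coverage (y axis, percentage points) for each CXXC gene with a peak in at least 1 list (dots), beside all protein-coding genes tested (boxes from the lower to the upper quartile with the median, lines from the 5th to the 95th percentile), for both antibodies and both regions (x axis). Kmt2b at -26.31 for KDM2A promoters and Cxxc5 at -38.37 for H3K36me2 gene bodies lie below the 5th percentile of all genes, -21.0 and -25.9.

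The extent of the lists was allowed for by scaling and by equal numbers of peaks, and these gave different values. After division of coverage by the share of the genome that its own list covered, the median KDM2A promoter difference of the CXXC genes was -0.01 percentage points and that of all genes 1.00. The split of all genes then turned, with 3.20% below and 9.33% above, and among the CXXC genes Tet3 had every KO list above every WT list and Kmt2b did not stand apart. For KDM2A gene bodies the split became 4.66% and 6.38%, with Kmt2a and Dnmt1 still below. For H3K36me2 it became 9.24% and 1.24% at promoters, where Cxxc1 alone of the 10 stayed below, and 8.33% and 1.08% over gene bodies, where none did.

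With the same number of strongest peaks kept in each list of an antibody, 15387 for KDM2A and 37447 for H3K36me2, the median KDM2A promoter difference of the CXXC genes was -7.47 and that of all genes -1.34. Kmt2b then still had all KO lists below all WT lists, at -19.29 (adjusted p = 0.770 by limma), no CXXC gene was above, and 7.96% of all genes were below and 1.96% above. For KDM2A gene bodies Kmt2b alone of the 10 was below, with 6.84% of all genes below and 2.07% above. For H3K36me2 no CXXC gene stood apart at promoters, where 9.54% of all genes were below and 0.502% above, while Cxxc5 and Tet1 did over gene bodies, where the shares were 13.2% and 0.624%.

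The fold of KDM2A promoter peaks was compared relative to the median of each list, which removes any shift that all peaks share. Among the 8 genes with a peak in every list the median difference was -0.02 on the centred log2 scale, where it was 0.00 for all 5786 genes tested. Of the 8 genes 6 were negative, beside 49.3% of all genes tested. No gene of the 8 had non-overlapping lists, where 5.17% of all genes were below and 5.2% above. None of the 5786 genes passed an adjusted p of 0.05 by limma, which is 0%, and 299 had an unadjusted p under 0.05. The differences of the 8 genes ran from -0.14 to 0.02 with standard errors of 0.10 to 0.13. Without centring, all 8 were negative, with a median of -0.09 beside -0.06 for all genes, and 10.1% of all genes had every KO list below every WT list. Fbxl19 was the one CXXC gene among these, at -0.20 (SE 0.10, adjusted p = 0.772 by limma), and 0 genes passed the test, with 344 at an unadjusted p under 0.05.

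H3K36me2 peaks were called in the promoter window in all 6 lists at Cxxc5 and Fbxl19, and 6.68% of protein-coding genes had such peaks. Over the gene body they were called in all 6 lists at 3 of the 10 genes, Cxxc5, Tet1 and Fbxl19, against 14.9% of protein-coding genes. In all 3 WT lists there were 6 such genes, adding Kmt2a, Tet3 and Dnmt1, against 31.1% of protein-coding genes, and in all 3 KO lists there were 3, against 15.4%. By library, 7, 6 and 6 of the 10 genes had a gene-body peak in WT and 7, 5 and 3 in KO, beside 41.4%, 43.1% and 42.9% of protein-coding genes in WT and 43.1%, 21.04% and 23.2% in KO. The male KO library thus had as many as the male WT library. Its list also held the most peaks, and the part of that in this count was not tested.

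Other genes of the same pathways were taken from lists chosen together with these genes, and no gene of any of them passed an adjusted p of 0.05 by limma in any fit. Among 3 other CXXC or TET genes, KDM2A promoter coverage of Kdm2b, the closest paralog of Kdm2a, was 39.1%, 26.9% and 28.3% in WT compared with 18.6%, 18.1% and 31.6% in KO. That of Kdm2a itself was 15.6%, 9.33% and 11.2% in WT against 7.23%, 2.50% and 11.9% in KO. Both overlapped between genotypes. H3K36me2 gene-body coverage was 10.5%, 11.0% and 8.02% against 4.88%, 0.969% and 1.24% at Kdm2b and had means of 2.94% and 1.21% at Tet2, which also oxidises 5-methylcytosine.

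For KDM2A promoter coverage, the lists below are to be read beside all genes tested, of which 73.9% had a lower mean in KO and 11.6% had all KO lists below all WT lists. Among 12 SET1/MLL partners and paralogs, 12 had a lower mean in KO, with a median difference of -4.52 percentage points, and KO lay below without overlap at 2. Kmt2d, an MLL-family enzyme of enhancers, resembled Kmt2b, with 53.7%, 53.2% and 53.2% in WT and 18.02%, 14.6% and 37.0% in KO. Its difference was -30.19 (SE 8.95, adjusted p = 0.598 by limma). Setd1b, the catalytic subunit of a SET1 complex, had 88.2%, 63.1% and 39.2% in WT and 46.5%, 30.2% and 58.2% in KO. Over gene bodies, the largest H3K36me2 differences of this list were at Men1, from means of 13.2% to 2.27%, where WT replicate 2 alone had 34.6%, and at Kmt2c, from 14.2% to 8.04%.

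Among 10 DNA methylation genes, 8 had a lower KDM2A promoter mean in KO, with a median of -1.88, and lists did not overlap at 0. The largest differences were at Tdg, the glycosylase that removes oxidised methylcytosine, from 12.1% to 4.77%, and at Uhrf1, the partner that guides DNMT1, from 19.5% to 13.4%. H3K36me2 over the body of Dnmt3a, a de novo methyltransferase whose PWWP domain reads this mark, was 14.8%, 17.5% and 9.58% in WT compared with 5.08%, 0.397% and 1.36% in KO, without overlap (difference -11.67, SE 3.63, adjusted p = 0.304 by limma). Its relative Dnmt3b had means of 5.11% and 1.66%.

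Among 11 partners of FBXL19 and KDM2B, 7 had a lower KDM2A promoter mean in KO, with a median of -2.38, and lists did not overlap at 1. Pcgf1, the Polycomb subunit of the KDM2B complex, had 35.1%, 11.3% and 38.4% in WT and 15.7%, 5.95% and 6.26% in KO. Ring1, an E3 ligase of Polycomb complexes, moved the other way, with 79.7%, 79.6% and 79.1% in WT and 67.3%, 100% and 100% in KO, and overlapped. H3K36me2 over its relative Rnf2 covered 16.96%, 16.5% and 10.002% in WT and 5.86%, 2.15% and 4.58% in KO, and these did not overlap. Ring1 itself had H3K36me2 over 11.8%, 0% and 6.25% of its body in WT and none in KO. For H3K36me2 gene-body coverage, 4 of the 10 genes tested from this list had every KO list below every WT list, beside 22.8% of all genes. Ring1, with 0% in WT replicate 2, was not among them.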

How the data were processed

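Genome binding of KDM2A and the distribution of H3K36me2 were measured by ChIP-seq in 3 WT and 3 KO libraries per antibody; the input libraries were not used here on their own. Alignment to GRCm38 (BWA) and broad peak calling against input (MACS2) were run by the authors through nf-core/chipseq, and each library has its own deposited list. The submitters' processing notes also name bedtools; versions of BWA, MACS2 and bedtools and the read filters are not given in the sources used here. The fold of a peak is the deposited ratio over the local control background and is not normalized between libraries. The deposited −log10 p-value and −log10 q-value of each peak were used in alternatives; the deposited score was not used. No reads came with the lists, so depth is unknown and no counting interval is given.

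Genes and TSS came from GENCODE M21 on chromosomes 1 to 19, X and Y (132629 TSS; 590705 peaks, of which 18 lay elsewhere), and starts were converted to 1-based positions. A peak counted when it overlapped a window by at least 1 bp. Coverage, in percent, and log2 of the highest fold, centred on the median of each list, were fitted with limma 3.58.1 in R 4.3.3 (lmFit, eBayes with trend) over all protein-coding genes with a value above 0 in at least 1 list, or a peak in all 6 lists for fold. P-values were adjusted by Benjamini-Hochberg at 0.05. Some marker genes are not reported here. The library was the unit. By the labels, replicate 1 was male and thus came from other animals than the female replicates 2 and 3. Whether replicates 2 and 3 were separate animals is not said, so p-values measure the spread between these libraries. Tables used Python 3.11.15, numpy 2.4.6 and pandas 2.3.3, and figures matplotlib 3.10.9. The genes and lists were chosen with earlier results of these data known. From the lists, a gene was to be named when it passed the test, and otherwise the 2 genes with the largest difference in KDM2A promoter coverage and the 2 in H3K36me2 gene-body coverage. For the scaled alternative, coverage was divided by the percent of the genome under the list and multiplied by the mean of that percent. Other alternatives changed the peak threshold, the number of peaks, window, TSS set, biotype, filter, centring, overlap rule, replicate block, sexes and libraries.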

Additional observations from a re-analysis of the deposited data

Results flagged for a closer look

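In 5 of 48 comparisons of a CXXC gene between the sexes, which include Cxxc4 at 0 throughout, the male pair of libraries moved one way and every pairing of the female libraries the other way. These differences between sexes were not tested, with 1 male library per group. The same pattern was seen in 9.32% and 8.58% of all genes tested for KDM2A promoter and gene-body coverage, where 1 of 9 and 0 of 9 CXXC genes had it, and in 16.6% and 21.7% for H3K36me2, where 1 of 9 and 3 of 8 had it. KDM2A promoter coverage of Kmt2a was 2.35 percentage points higher in KO in the male pair and lower by 5.27 to 21.1 points in the female pairings, with a mean of -13.2. H3K36me2 promoter coverage of Tet3 was 10.5 points higher in the male KO library, against a female mean of -14.3. H3K36me2 gene-body coverage was higher in the male KO library by 3.20 points at Tet1, by 0.833 at Tet3 and by 0.385 at Fbxl19, against female means of -13.3, -5.09 and -4.38. The male KO list of H3K36me2 had 106720 peaks and the female KO lists 37447 and 45180, and the part of list length in these values was not tested.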

How the results depend on the processing

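No CXXC gene passed an adjusted p of 0.05 in any fit or alternative. Of 582 differences of single genes under alternatives, 542 stayed within 1 SD of the reported value and 40 moved further. The SD was that between libraries within a genotype, so a small difference could change sign and still count as within. A replicate block, no filter and all biotypes left each coverage difference unchanged by design, and these settings are counted. As percentile ranks within each list, which are in another unit, 6 of 8 promoter folds kept their sign and their median was -4.17 percentile points. Of 43 pairs of gene and fit, 22 kept their sign throughout. They include Kmt2a and Mbd1 for H3K36me2 promoters and Kmt2b and Mbd1 for H3K36me2 gene bodies, whose sign was fixed by the filter. The median difference of the CXXC genes moved as follows, and the cause was not tested. Scaled to the extent of each list, it was -0.00653 for KDM2A promoters, -1.13 for KDM2A gene bodies, -1.86 for H3K36me2 promoters and -1.32 for H3K36me2 gene bodies. With equal numbers of peaks it was -1.62 for H3K36me2 gene bodies and stayed within 1.5 times the reported value for the other coverage fits. With peaks of a −log10 q of at least 2 it was -3.49 for KDM2A gene bodies, -2.39 for H3K36me2 promoters and -0.426 for H3K36me2 gene bodies. With coding TSS alone it was -4.42 for KDM2A promoters. In females alone it was -1.54 for KDM2A promoters, -2.49 for KDM2A gene bodies and -4.74 for H3K36me2 gene bodies. Leaving out each library in turn gave -9.69 to -2.70 for KDM2A promoters (-2.70 without WT replicate 1, -2.96 without KO replicate 2 and -4.46 without WT replicate 2), -9.36 to -2.71 for KDM2A gene bodies (-9.36 without WT replicate 2, -2.71 without KO replicate 2, -3.83 without KO replicate 1, -3.32 and -3.53 without WT replicates 1 and 3), -9.10 to -3.97 for H3K36me2 promoters (-9.10 without KO replicate 1, -3.97 without KO replicate 2) and -3.95 to -2.0 for H3K36me2 gene bodies. Promoter fold ranged from -0.08 to 0.00.

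Genes passing the test in the whole table rose from 0 to 1 (KDM2A promoters) and 2 (KDM2A gene bodies) without the filter, to 12 (KDM2A gene bodies) and 45 (H3K36me2 gene bodies) over all biotypes, and to 7 (H3K36me2 promoters) and 1 (H3K36me2 gene bodies) with the stricter peaks; for KDM2A gene bodies, leaving out a library gave 0 to 8, with 8 without KO replicate 1 and 3 without KO replicate 2. With stricter peaks, 4 rather than 8 CXXC genes had a KDM2A promoter peak in all 6 lists (10.9% rather than 26.4% of protein-coding genes), 2 rather than 6 an H3K36me2 gene-body peak in all WT lists (5.50% rather than 31.1%) and 1 rather than 3 in all KO lists (1.48% rather than 15.4%); with equal numbers of peaks, 2 had one in all WT lists (16.2%). With the replicate number as a block the medians were unchanged, as in a balanced pairing, at -7.58, -6.16, -6.04, -2.81 and -0.02, and 0 genes passed. Same-numbered libraries correlated at -0.08 to 0.08 in their deviations from group means and not always best with each other, so the numbers were not taken to pair them.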
